A study of Homo sapiens with 6 samples.

Results

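The genes described here encode kinesins, the motor proteins that use ATP to move along microtubules or to take them apart. Members were taken by name: probe sets with a kinesin symbol (KIF and a number, or KIFC1 to KIFC3) as their only gene symbol. This gave 101 of 49395 probe sets on the array, which stand for 41 of 18132 genes. An antisense RNA named after KIF25, with 4 probe sets, was left out, and so was 1 probe set shared by KIF4A and its near copy KIF4B. Of the 41 genes, 27 had 2 or more probe sets and 14 had 1.

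RNA came from 786-O, an established human renal cell carcinoma line, on 6 Affymetrix arrays with 1 colour. In the first group, 3 arrays, cells carried an shRNA against ERCC6L brought in by lentivirus (shERCC6L). In the second, also 3 arrays, they carried a negative control shRNA (shNC). Both groups share the line, the medium and the protocol text on lentiviral delivery, which names only the ERCC6L shRNA. Nothing in the labels tells the number of hairpins or whether replicates came from separate cultures. The p-values therefore reflect only the spread among these arrays, which may be technical.

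ERCC6L, also called PICH, is a DNA translocase found on the threads that join sister chromatids in anaphase. Its probe set read 97.59, 97.49 and 97.83 on the shERCC6L arrays, against 239.9, 244.3 and 261.4 on the shNC arrays. The groups were far apart, at a log2 fold change of -1.22 ± 0.04 (SE; limma adjusted p = 1.6e-07). Median signals lay between 60.04 and 61.56 on the 6 arrays, and no array stood apart: correlations of the log2 values were 0.9987 to 0.999 within groups and 0.9932 to 0.9939 across groups. All 9 measured markers of the renal carcinoma line reached the median level of all genes, among them PAX8, with mean signals of 502.1 in shERCC6L and 392.3 in shNC. Of the 9, 2 rose (PAX8 and KRT18) and 3 fell (NNMT by 0.66, EPAS1 by 0.36 and CDH2 by 0.26 on the log2 scale). None of the 5 endothelial and 6 fibroblast markers reached that level, nor did 3 of the 4 leukocyte markers, PTPRC among them at 7.21 in shERCC6L and 7.31 in shNC. The exception, CD68, read 152.1 in shERCC6L and 127.4 in shNC and rose by 0.23. COL1A1, a fibroblast marker, fell by 0.38. Their part in the kinesin values was not tested.

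Kinesins share a motor domain and differ in the tails that bind cargo. Mitotic kinesins separate the spindle poles, move and attach chromosomes and build the midzone at which the cell divides, and many of their genes are transcribed mainly in G2 and mitosis. Transport kinesins carry vesicles, organelles and protein complexes along the microtubules of cells in any phase, and some of them work mainly in neurons or cilia. Symbols were sorted into 4 classes by these roles: 13 measured mitotic kinesins, 15 transport kinesins, 6 of cilia, centrioles and Hedgehog signalling, and 7 others.

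The mitotic kinesins were mostly higher when ERCC6L was reduced, while most transport kinesins did not pass the test and the largest change among kinesins was a fall of the transport motor KIF3B. Of the 13 mitotic genes 9 rose and 1 fell, with a median log2 fold change of 0.200. Of the 15 transport genes 3 rose and 2 fell, with a median of 0.062, whose sign was not stable: it was -0.02 with the probe sets of each gene averaged. The median over all genes was -0.01. All log2 fold changes are shERCC6L over shNC on log2(signal + 16), which understates the change of dim genes. Each gene is given by its brightest probe set, and a gene passed at a limma adjusted p under 0.05 over all 18132 genes. Because the classes were drawn up with earlier results of these data known, no p is given for a class or for the gap between classes.

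**Figure D1:**
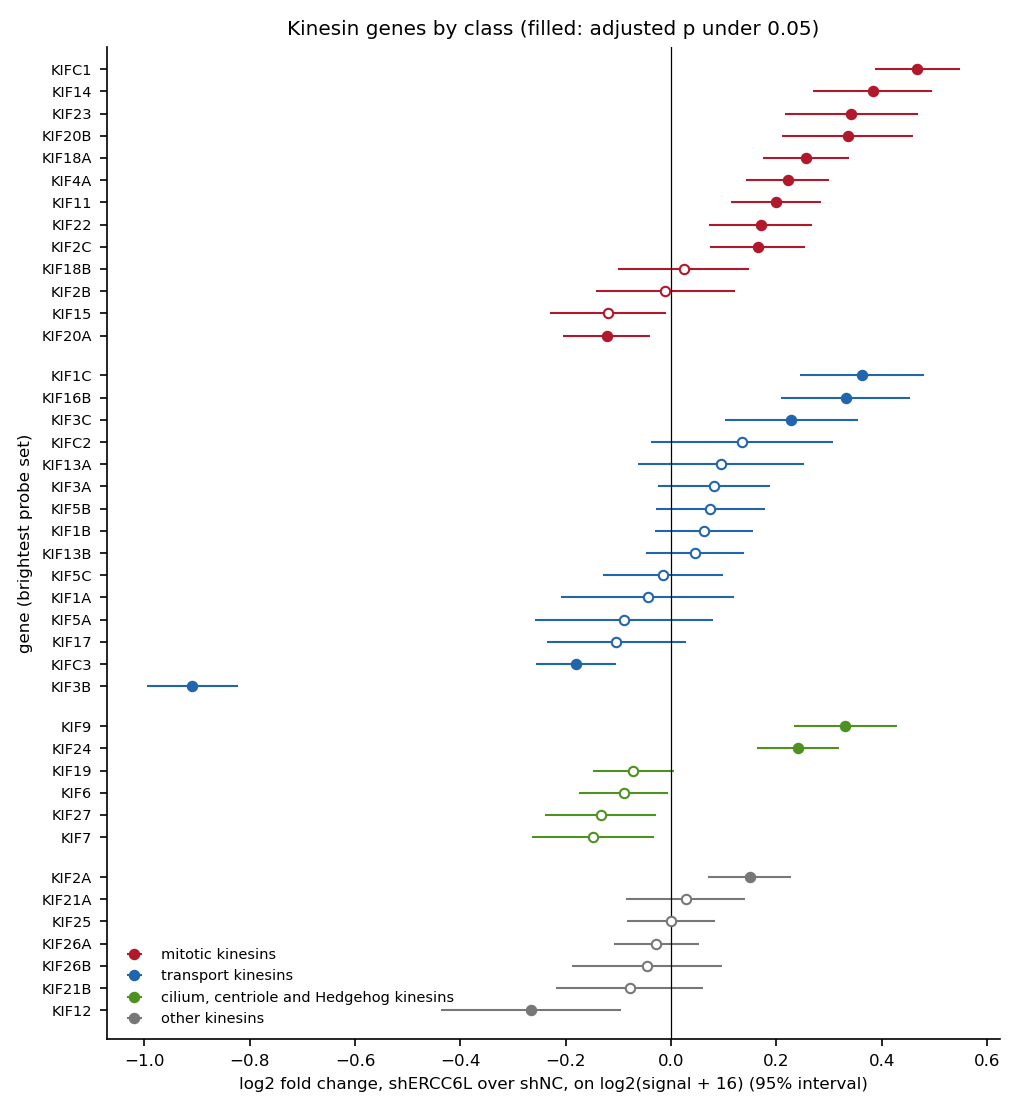
Log2 fold change, shERCC6L over shNC, with its 95% interval (x axis) for each of the 41 kinesin genes (y axis), ordered by size within 4 classes. Filled points passed the adjusted threshold: 9 mitotic genes lie right of 0 and 1 left of it, while KIF3B, at -0.91, lies far to the left of all others.

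In all, 19 of 41 kinesin genes passed, against 31.6% of all genes. There were 15 rises, against 18.2% of all genes, and 4 falls, against 13.4%. Kinesins include many well expressed genes, and calls were more frequent there. Among genes whose mean over all 6 arrays reached the median level of all genes, 52.4% passed, 32.8% higher and 19.6% lower. Of the 12 mitotic kinesins at that level 9 rose and 1 fell, and of the 8 transport kinesins at that level 2 rose and 2 fell. The share of rises among mitotic kinesins was thus 75% beside 32.8%, and that among transport kinesins 25%. The groups did not overlap for 24 of the 41 genes, against 43.4% of all genes, and 11 of these were mitotic. At or above the median level they did not overlap for 18 of 26 kinesins, beside 5849 of 9066 genes.

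The changes were small. Among the genes that passed, 0 kinesins rose by 1.5-fold or more, against 0.711% of all genes, and 1 fell by as much, KIF3B, against 1.37%. No kinesin changed by 2-fold on this scale. Since RNA came from whole cultures, a different number of cells in a phase of the cycle and a different amount of RNA per cell cannot be told apart.

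The rises of the mitotic class ran through motors of the spindle, of the chromosomes and of the midzone. Of the spindle motors, KIFC1 (HSET), which crosslinks spindle microtubules and gathers extra centrosomes, changed most. Its signal was 526.7, 545.9 and 543.4 in shERCC6L, against 373.7, 393.1 and 388.8 in shNC, a log2 fold change of 0.47 ± 0.04 (SE, n = 3 per group; limma adjusted p = 1.7e-05). Every shERCC6L array lay above every shNC array. KIF11 (Eg5), which pushes the spindle poles apart, read 910.9, 931.9 and 948.1 in shERCC6L, against 778.6, 812.9 and 832.9 in shNC, a log2 fold change of 0.20 ± 0.04, with the same value but no call on its other probe set (adjusted p = 0.11). KIF15, which can stand in for KIF11, did not pass: it read 189.2, 186.8 and 166.5 in shERCC6L and 194.6, 195.5 and 202.5 in shNC, a log2 fold change of -0.12 with a 95% interval from -0.23 to -0.01 (limma adjusted p = 0.098). The groups of KIF15 did not overlap either, but in the opposite direction to KIF11, and with quantile normalization the fall passed (-0.15, adjusted p = 0.047).

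Motors that act at kinetochores, chromosome arms and microtubule ends were higher too. KIF18A, which damps the movements of chromosomes at the metaphase plate, read 418.6, 401.9 and 430.4 in shERCC6L, against 344.9, 347.1 and 346.6 in shNC (log2 fold change 0.26 ± 0.04). The chromokinesin KIF4A, which also shortens midzone microtubules, read 589.1, 608.8 and 592.7 in shERCC6L, against 510.1, 497.6 and 521.5 in shNC (0.22 ± 0.03). Both genes had groups well apart. KIF22 (Kid), a chromokinesin that pushes chromosome arms from the poles, read 596.3, 646.7 and 593.8 in shERCC6L, against 530.7, 537.2 and 558.6 in shNC (0.17 ± 0.04, limma adjusted p = 0.014). KIF2C (MCAK), which depolymerizes microtubules to correct faulty attachments, read 1756, 1802 and 1738 in shERCC6L, against 1631, 1503 and 1589 in shNC (0.16 ± 0.04, adjusted p = 0.012).

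These smaller rises were less secure. KIF22 missed the threshold without shERCC6L replicate 2 (log2 fold change 0.13, adjusted p = 0.052) and without shNC replicate 1 (0.16, adjusted p = 0.052), and KIF2C missed it with quantile normalization (0.14, adjusted p = 0.051). The groups overlapped for KIF18B, which controls the length of astral microtubules, at 170.0, 156.9 and 153.4 in shERCC6L and 163.7, 163.7 and 144.6 in shNC. Its log2 fold change of 0.02 had a 95% interval from -0.10 to 0.15, and its 4 probe sets lay between 0.02 and 0.07, none past the threshold. KIF2B, a relative of KIF2C, was near the bottom of the scale at 10.14, 12.2 and 10.36 in shERCC6L and 10.92, 9.135 and 13.39 in shNC.

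Midzone and cytokinesis motors gave 3 rises and the fall of the class. KIF14, which works with citron kinase at the midbody, read 376.7, 374.5 and 389.9 in shERCC6L, against 266.7, 307.1 and 291.6 in shNC, a log2 fold change of 0.38 ± 0.05. KIF23 (MKLP1), the motor of the centralspindlin complex, read 565.0, 618.6 and 660.6 in shERCC6L, against 474.9, 499.7 and 467.6 in shNC (0.34 ± 0.06). KIF20B, a relative that acts in abscission, read 310.9, 300.6 and 283 in shERCC6L, against 223.7, 253.2 and 222.7 in shNC (0.34 ± 0.06). All 3 had limma adjusted p-values of 0.0014 or less, and their groups did not overlap. KIF14 rose on both of its probe sets, whereas the other KIF23 probe set, at 0.13 (adjusted p = 0.25), did not pass.

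KIF20A (MKLP2), which brings the chromosomal passenger complex to the midzone, moved the other way. It read 608.2, 648.3 and 626 in shERCC6L, against 685.4, 672 and 695.9 in shNC, a log2 fold change of -0.12 ± 0.04 (limma adjusted p = 0.031). This small fall was the least stable call of the class. It missed the threshold in 6 of 17 alternative settings, among them a pseudocount of 1 (adjusted p = 0.068) and 4 of the 6 fits that left out 1 array, those without shERCC6L replicate 1 (-0.10, adjusted p = 0.093), shERCC6L replicate 3 (-0.12, 0.069), shNC replicate 1 (-0.12, 0.079) or shNC replicate 3 (-0.11, 0.10).

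**Figure D2:**
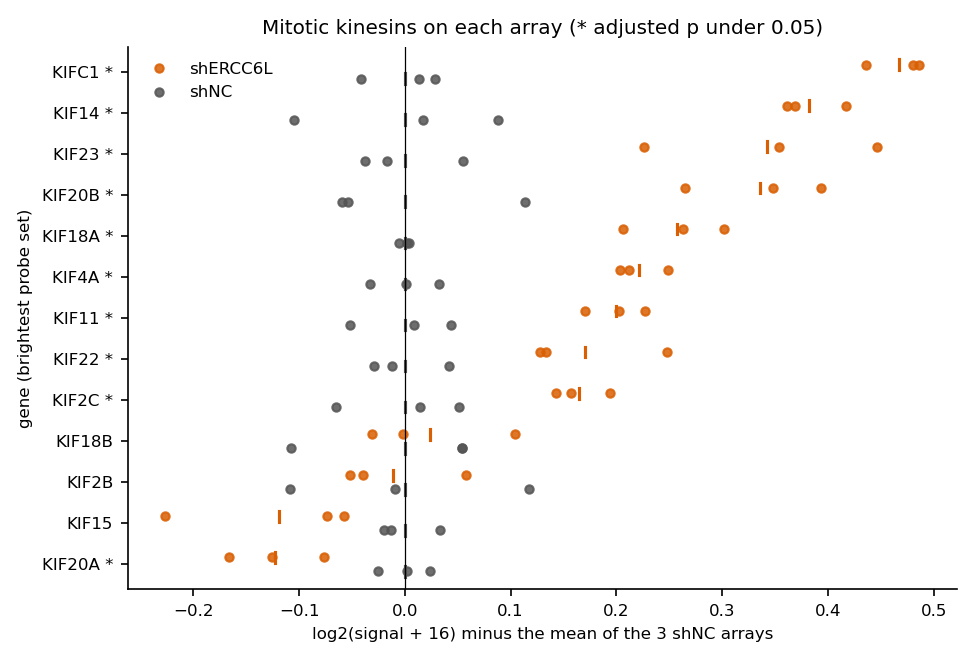
Signal of the 13 mitotic kinesins on every array, as log2(signal + 16) minus the mean of the 3 shNC arrays (x axis), with 1 gene per row; points are arrays, short bars group means, orange shERCC6L and grey shNC. For the 9 genes from KIFC1 down to KIF2C every orange point lies right of every grey one, and for KIF15 and KIF20A every orange point lies left.

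Known partners of these motors were mostly higher, and listed proliferation markers and cell cycle regulators rose more often than they fell. Of 20 spindle and midzone partners 14 were higher and 1 was lower (median log2 fold change 0.234), and all 20 reached the median level, where 32.8% of genes were higher and 19.6% lower. The partners include CENPE, a kinesin of the kinetochore outside the KIF naming, which read 601.3, 607 and 604.5 in shERCC6L, against 435.2, 397.2 and 423.5 in shNC (0.51 ± 0.04, limma adjusted p = 1.8e-05). BIRC5 (survivin), of the chromosomal passenger complex, rose by 0.66 ± 0.03 and the spindle kinase AURKA by 0.57 ± 0.03, while HMMR, a spindle assembly factor, fell by 0.60 ± 0.03. Partners of the midzone motors, named after their values were seen, were not uniform. PRC1, which recruits KIF4A, rose by 0.25 ± 0.04, and CIT, the citron kinase gene, by 0.20 ± 0.04. The passenger complex genes AURKB, INCENP and CDCA8 rose by 0.22, 0.26 and 0.30. RACGAP1, the partner of KIF23 in centralspindlin, was at 0.11 ± 0.07 and did not pass, and neither did ECT2, at 0.13. Of 15 proliferation markers and cell cycle regulators 8 rose, MKI67 by 0.48 ± 0.04, TOP2A by 0.39 ± 0.04, E2F4 by 0.51 ± 0.05 and MYBL2 by 0.33 ± 0.03 among them, while PCNA (0.02) and CCNA2 (0.01) were among the 5 that did not pass. Of the 12 at the median level 7 rose and 1 fell, 58.3% and 8.33%, beside 32.8% and 19.6% of all genes there. The median log2 fold change of all 15 was 0.196. The list joins markers with regulators of the cycle, E2F4 and LIN54 among the latter, so these counts are no measure of proliferation. The 2 of 15 that fell, like PCNA and CCNA2 named after their values were seen, were FOXM1 at -0.39 ± 0.05 and LIN54 at -0.21 ± 0.05. All 3 FOXM1 probe sets fell. What part these genes have in the kinesin changes was not tested.

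Promoters of genes transcribed in G2 and mitosis are known for a CHR element, TTTGAA, bound by the DREAM and MuvB complexes, often downstream of CCAAT boxes bound by NF-Y. These letters were looked up in RefSeq windows of GRCh38.p14 that run from 250 bases before a start site to 50 after it, on both strands. The start is the one the window table uses. In 29 of 33 kinesin windows it is the upstream end of the annotated gene. In KIFC1, KIF24, KIF7 and KIF5C it lies inside the gene, by 362, 4403, 7582 and 72648 bases. The variant TTCGAA, which reads alike on both strands, was searched as well. Windows matched 33 of the 41 kinesins (all 13 mitotic and 11 of the 15 transport genes among them), and in 0 of these did matches overlap. TTTGAA was present in 9 of 13 mitotic windows (69.2%) and 1 of 11 transport windows (9.09%), beside 15.4% of all 27305 windows and 12.1% of those of genes measured here. CCAAT was present in 10 of 13 mitotic windows (76.9%) and 3 of 11 transport windows (27.3%), beside 35.7% of all windows. A CHR element of either form together with CCAAT stood in 9 of 13 mitotic windows and 1 of 11 transport windows, that of KIF5B, beside 6.58% of all windows.

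Both motifs were held by 8 of the 9 mitotic kinesins that rose, all but KIF2C, whose window had neither. They were also held by KIF18B, which did not pass. KIF20A, which fell, had CCAAT boxes but no CHR letters in this window, and KIF15 had TTTGAA without CCAAT. A match is a description of letters and no sign of binding, and a window without them says nothing about the factors. The windows of the 3 largest mitotic rises, of the mitotic kinesin that fell and of KIF3B are shown 5′ to 3′ with the motif letters on either strand in capitals. They lie at chr6:33391573-33391872 (plus strand, KIFC1), chr1:200620702-200621001 (minus strand, KIF14), chr15:69414099-69414398 (plus strand, KIF23), chr5:138178862-138179161 (plus strand, KIF20A) and chr20:32277401-32277700 (plus strand, KIF3B).
KIFC1: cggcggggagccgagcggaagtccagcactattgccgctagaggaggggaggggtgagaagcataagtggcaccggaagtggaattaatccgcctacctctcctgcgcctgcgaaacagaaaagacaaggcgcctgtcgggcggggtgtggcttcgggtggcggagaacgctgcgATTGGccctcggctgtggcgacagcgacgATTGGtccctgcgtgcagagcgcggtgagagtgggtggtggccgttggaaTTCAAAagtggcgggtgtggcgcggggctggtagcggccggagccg
KIF14: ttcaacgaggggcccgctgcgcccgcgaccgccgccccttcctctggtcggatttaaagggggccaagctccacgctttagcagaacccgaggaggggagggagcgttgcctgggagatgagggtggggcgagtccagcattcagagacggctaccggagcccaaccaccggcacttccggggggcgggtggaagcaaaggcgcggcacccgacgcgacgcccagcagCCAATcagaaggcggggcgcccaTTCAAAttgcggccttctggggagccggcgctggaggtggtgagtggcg
KIF23: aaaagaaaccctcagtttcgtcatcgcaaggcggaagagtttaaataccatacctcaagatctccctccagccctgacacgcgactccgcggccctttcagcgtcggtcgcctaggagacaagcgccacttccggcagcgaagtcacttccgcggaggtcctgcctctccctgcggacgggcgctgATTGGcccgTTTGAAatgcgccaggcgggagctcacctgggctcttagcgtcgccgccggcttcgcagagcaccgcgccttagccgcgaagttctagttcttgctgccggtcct
KIF20A: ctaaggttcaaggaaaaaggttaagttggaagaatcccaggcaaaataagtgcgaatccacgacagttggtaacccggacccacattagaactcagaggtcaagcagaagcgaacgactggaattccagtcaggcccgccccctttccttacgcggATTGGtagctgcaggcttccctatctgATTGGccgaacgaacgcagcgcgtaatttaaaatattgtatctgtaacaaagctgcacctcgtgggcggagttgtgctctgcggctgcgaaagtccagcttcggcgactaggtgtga
KIF3B: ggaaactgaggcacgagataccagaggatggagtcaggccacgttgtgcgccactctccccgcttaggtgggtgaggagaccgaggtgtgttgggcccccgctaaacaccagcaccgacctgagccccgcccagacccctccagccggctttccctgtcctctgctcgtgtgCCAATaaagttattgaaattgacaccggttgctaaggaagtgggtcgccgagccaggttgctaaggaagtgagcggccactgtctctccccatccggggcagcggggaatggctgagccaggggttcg
In KIFC1 a pair of CCAAT boxes on the minus strand, at -75 and -46, precedes a CHR element at 5, counted from the start of the window table at 1. In KIF23 both motifs lie side by side, at -64 and -55.

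**Figure D3:**
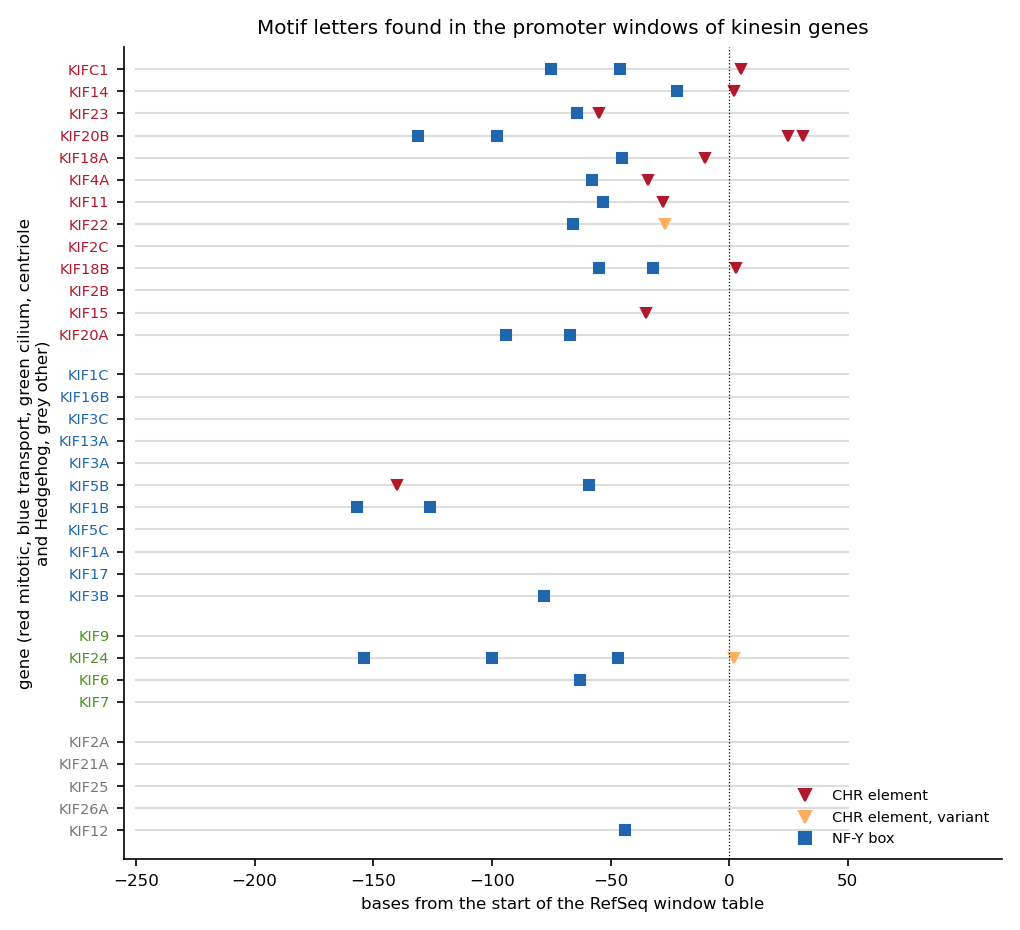
Positions of CHR elements (red triangles), their variant (orange triangles) and NF-Y boxes (blue squares) in bases from the start used by the RefSeq window table (x axis), in the windows of 33 kinesin genes (y axis, largest log2 fold change first within each class). In the windows of 8 mitotic genes that rose, from KIFC1 to KIF22, the CHR letters of either form stand to the right of an NF-Y box, while 8 of the 11 transport windows are empty. The empty transport windows include that of KIF5C, whose start lies 72648 bases inside the gene.

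Among transport kinesins the heterotrimeric kinesin-2 motor gave the largest change. KIF3B pairs with KIF3A and the adaptor KIFAP3 and moves cargo in cilia and in the cytoplasm. Its signal was 180.6, 177.1 and 171.0 in shERCC6L, against 357.3, 337.0 and 340.3 in shNC, a log2 fold change of -0.91 ± 0.04 (SE, n = 3 per group; limma adjusted p = 5.1e-07), or 1.88-fold lower. The groups were far apart, every shERCC6L array lying below every shNC array. A second KIF3B probe set read 110.8, 93.28 and 107.4 in shERCC6L, against 208.5, 205 and 201 in shNC (-0.88 ± 0.06, here and for other additional probe sets from a fit over all probe sets). The remaining 2 were dim, with no signal above 30.25, and gave -0.24 (adjusted p = 0.006) and -0.13 (adjusted p = 0.082). With the 4 averaged the log2 fold change was -0.54.

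The partners of KIF3B changed less. KIF3A read 153.6, 149.4 and 155.2 in shERCC6L and 154.3, 141.4 and 135.0 in shNC, with a log2 fold change of 0.08 and a 95% interval from -0.02 to 0.19 (without shNC replicate 1, it passed at 0.13, adjusted p = 0.0497). Of its other 2 probe sets, both positive, the dimmest rose by 0.11 (adjusted p = 0.046) and the other, at 0.02, did not pass. KIFAP3 read 276.8, 260.3 and 288 in shERCC6L, against 300, 309.8 and 300.5 in shNC (-0.14 ± 0.04, limma adjusted p = 0.036), and its other probe set was lower as well, at -0.18. KIF3C, the alternative partner of KIF3A, read 167.5, 168.7 and 152 in shERCC6L, against 125.7, 143.6 and 140.6 in shNC, a rise of 0.23 ± 0.06 (adjusted p = 0.012). That rise was carried by the brightest probe set: the other 2, at 0.10 and -0.17, did not pass, and with the 3 averaged KIF3C was at 0.05 (adjusted p = 0.29). It also missed the threshold without shERCC6L replicate 2 (0.20, adjusted p = 0.051).

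Motors of vesicles and organelles were divided. KIF1C, a vesicle motor with 1 probe set, read 345.1, 371.5 and 331.7 in shERCC6L, against 285.1, 261.2 and 258.2 in shNC, a rise of 0.36 ± 0.05 (limma adjusted p = 6.5e-04). KIFC3, a minus end motor of Golgi and adherens junctions, read 386.3, 377.8 and 373.3 in shERCC6L, against 430.4, 439.1 and 425.5 in shNC, a fall of 0.18 ± 0.03 (adjusted p = 0.0028). All 6 KIFC3 probe sets lay below 0, from -0.18 to -0.08, and 3 of them passed. KIF5B, the heavy chain of conventional kinesin in most tissues, did not pass on its brightest probe set, with signals of 1523, 1604 and 1708 in shERCC6L and 1493, 1554 and 1538 in shNC (0.07, 95% interval -0.03 to 0.18). Its other 3 probe sets rose, by 0.13 to 0.19, and with the 4 averaged KIF5B was at 0.14 (adjusted p = 0.0067).

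**Figure D4:**
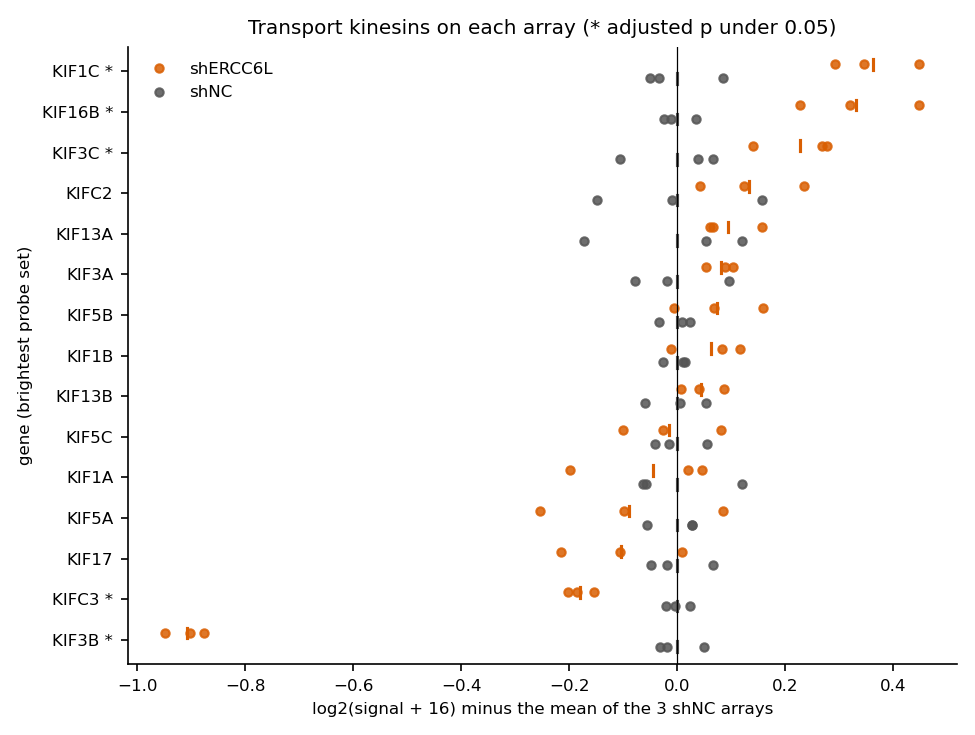
Signal of the 15 transport kinesins on every array, as log2(signal + 16) minus the mean of the 3 shNC arrays (x axis), with 1 gene per row; points are arrays, short bars group means, orange shERCC6L and grey shNC. The orange points of KIF3B lie near -0.9, those of KIF1C, KIF16B and KIF3C right of all grey ones, and for 10 of the 15 genes the groups overlap.

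KIF16B, a motor of early endosomes, gave opposite calls on its 2 probe sets. The brighter, below the level set for values on each array and shown here because of its conflict, read 77.31, 83.56 and 92.73 in shERCC6L, against 63.12, 62.42 and 65.71 in shNC (0.33 ± 0.05, limma adjusted p = 0.0014). The other read 45.13, 41.34 and 48.68 in shERCC6L, against 68.38, 69.21 and 72.35 in shNC (-0.50 ± 0.05, adjusted p = 9.9e-05). Their average was -0.08 (adjusted p = 0.19), so that the direction for KIF16B depends on the probe set. KIF1B, a motor of mitochondria and synaptic vesicle precursors, did not pass on its brightest probe set, at 0.06 with a 95% interval from -0.03 to 0.16. Of its other 5 probe sets 1 rose, by 0.16, and 3 fell, by 0.10, 0.17 and 0.39. The stretch of transcript that each probe set reads is not known here.

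The remaining transport kinesins did not pass over all 6 arrays, and their groups overlapped. KIFC2, described in mouse neurons, was at 0.13 (95% interval -0.04 to 0.31) and passed without shNC replicate 1 (0.21, adjusted p = 0.045). The endosome motors KIF13A and KIF13B were at 0.09 and 0.04. The mainly neuronal motors KIF5A, KIF5C, KIF1A and KIF17 lay between -0.10 and -0.01, with mean signals of at most 83.6 in both groups.

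Of the kinesins of cilia, centrioles and Hedgehog signalling 2 of 6 rose and 0 fell in the limma fit, beside 18.2% and 13.4% of all genes. KIF9, a motor of motile cilia and sperm tails, read 386.4, 371.6 and 378.5 in shERCC6L, against 306.6, 279.6 and 308.1 in shNC (0.33 ± 0.04, limma adjusted p = 3.9e-04). Its other 2 probe sets, at 0.08 and -0.02, did not pass, and the average of the 3 was 0.13. KIF24, which acts with CP110 at centrioles to hold back cilia, rose by 0.24 ± 0.03 at mean signals of 69.5 in shERCC6L and 56.3 in shNC, while its other probe set was at 0.05 and the average of both was 0.14. KIF7, the Hedgehog regulator at the tip of the cilium, and its relative KIF27 were at -0.15 and -0.13 (both adjusted p = 0.055), KIF6 at -0.09 and KIF19, which limits cilium length in mice, at -0.07. The groups of these 4 did not overlap, as was so for 43.4% of all genes, and all 4 were dim, with mean signals of at most 47.6. KIF7 passed in 3 of 16 alternative settings, among them without shERCC6L replicate 3 (-0.18, adjusted p = 0.044), and KIF27 in 6 of 15, among them without shERCC6L replicate 1 (-0.17, adjusted p = 0.026).

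In the last class 1 of 7 genes rose and 1 fell, near the shares of all genes. KIF2A, a microtubule depolymerase of spindle poles and growing neurites, read 273.4, 285.2 and 289.3 in shERCC6L, against 255, 253 and 251.5 in shNC (0.15 ± 0.03, limma adjusted p = 0.0093). Counted as mitotic, it would bring that class to 10 rises of 14. KIF12, a kinesin of kidney and liver epithelia, read 149.2, 136.9 and 117.5 in shERCC6L, against 176.2, 154.2 and 163.5 in shNC (-0.27 ± 0.08, adjusted p = 0.024). Its arrays were spread, and it missed the threshold without shERCC6L replicate 2 (-0.28, adjusted p = 0.055), shERCC6L replicate 3 (-0.18, 0.05045), shNC replicate 1 (-0.22, 0.086) or shNC replicate 3 (-0.27, 0.061). KIF21A and KIF21B, which restrain microtubule growth at the cell cortex, were at 0.03 and -0.08, and KIF21B fell with its 2 probe sets averaged (-0.11, adjusted p = 0.029). KIF25, KIF26A and KIF26B lay at -0.05 or closer to 0 and did not pass.

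Probe set by probe set, most mitotic values were positive, while transport values were of both signs. Of 101 kinesin probe sets tested among 44988, 38 passed, against 29% of all probe sets: 25 were higher, against 17%, and 13 were lower, against 12%. Of the 23 mitotic probe sets 14 were higher and 1 lower, and 20 had a positive log2 fold change. Of the 48 transport probe sets 8 were higher and 10 lower, and 20 had a positive log2 fold change. Their median was -0.04, on the other side of 0 from the 0.06 of the brightest probe sets alone. Of all 44988 probe sets 21248 had a positive log2 fold change, and the median was -0.0055. Probe sets of a gene share its transcripts and are no replicates. Among the 27 genes with 2 or more probe sets, all passed in the same direction for 4 (KIF14, KIF22, KIF2C and KIF4A, all mitotic), some passed in the same direction for 11, none passed for 10, and 2, KIF16B and KIF1B, had calls in both directions.

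**Figure D5:**
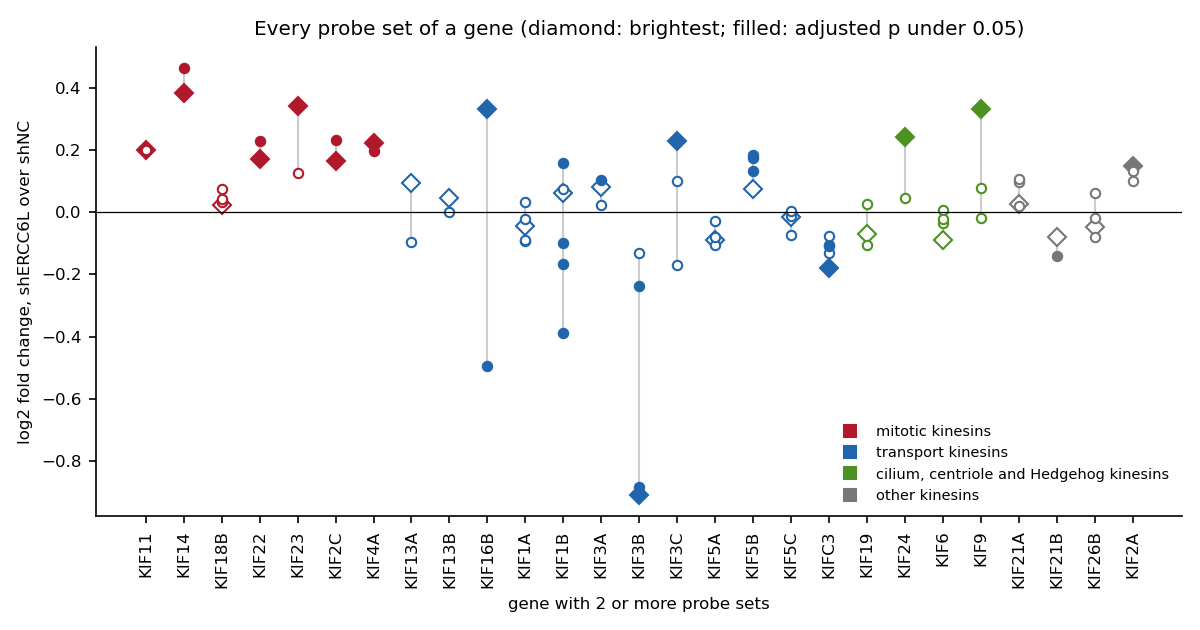
Log2 fold change, shERCC6L over shNC (y axis), of every probe set of the 27 kinesin genes with 2 or more (x axis, coloured by class); diamonds mark the brightest probe set and filled symbols passed the adjusted threshold. The mitotic probe sets shown all lie above 0, while those of KIF16B run from -0.50 to 0.33 and those of KIF1B from -0.39 to 0.16. The mitotic genes KIF15, KIF20A and KIF2B, with values below 0, have 1 probe set each and are not shown.

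Light chains, adaptors and regulators of the transport motors included rises and falls. Of 19 measured, 4 were higher and 5 lower, with a median log2 fold change of 0.054. Of the 16 at the median level 4 rose and 4 fell, 25% each way, beside 32.8% and 19.6% of all genes there. KIFBP, which binds the motor domain of several kinesins and keeps them off microtubules, rose most, with 1040, 1057 and 1165 in shERCC6L, against 743.2, 844.5 and 802.8 in shNC (0.44 ± 0.06, limma adjusted p = 3.8e-04), and its other probe set rose by 0.57. MAP7 and MAP7D1, microtubule proteins that recruit conventional kinesin, rose by 0.35 ± 0.05 and 0.25 ± 0.03, and the adaptor FEZ1 by 0.18 ± 0.04. Those that fell, named after their values were seen, were MAPK8IP3 (-0.21), KLC4 (-0.17), HAP1 (-0.14), KIFAP3 (-0.14) and TRAK2 (-0.12).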

How the data were processed

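The deposited table holds linear probe set intensities, 1 column per array. The submitters' processing notes name Affymetrix Expression Console. Its version and how it corrected, normalized and summarized the intensities are not given here. Array medians were nearly equal, and with 6 arrays their number sets the precision. Symbols came from GEO's platform annotation, of which 44988 probe sets had 1 symbol, 1832 several and 2473 none listed here; 44961 gene numbers matched RefSeq (GRCh38.p14). Intensities were transformed to log2(signal + 16), and each gene was represented by its brightest probe set on average across the 6 arrays.

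The contrast was fitted in R 4.3.3 by limma 3.58.1, with 2-sided moderated tests by lmFit and eBayes. These had 4 residual degrees of freedom and 4.95 from the prior. Adjustment was by Benjamini-Hochberg over all 18132 genes or, in a second fit, all 44988 probe sets. A check of the fit on simulated data required recovery only of changes larger than any kinesin change here. The threshold was 0.05. The members, the class and partner lists and the alternatives were chosen with earlier results of these data known. Values on each array are given for kinesins past the threshold with at least the median level of all genes (6.68 on the log2 scale) in their higher group and for all mitotic kinesins that did not pass; of the other lists, up to 4 genes past the threshold with the smallest p are named, and names or values on each array beyond this rule were chosen after they were seen. Promoter windows and their positions are RefSeq's (GRCh38.p14); a position is that of the leftmost base of a match, with the start of the window table at 1 and the base before it at -1.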

Additional observations from a re-analysis of the deposited data

How the results depend on the processing

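Across 19 alternatives (17 settings and 2 changes of class membership), 13 of the 19 kinesin calls kept their side of the threshold in every setting in which the gene was tested, and the exceptions KIF12, KIF16B, KIF20A, KIF22, KIF2C and KIF3C lost it in 1 or more. ERCC6L stayed lower in all 17 settings (-1.34 to -0.95). With each gene's probe sets averaged KIF16B turned to -0.082 (adjusted p = 0.19), which follows from its 2 opposed probe sets. Rises stayed at 13 to 16 of all kinesins and at 8 to 10 of the mitotic ones. The count of falls among all kinesins was 7 with probe sets averaged and 2 to 4 without 1 array, and that of kinesin probe sets 7 to 11 without 1 array. Mitotic falls numbered 0 with a replicate block or a pseudocount of 1, 2 with quantile normalization, and 0 to 1 without 1 array. Transport rises numbered 2 to 5 without 1 array. For cilium, centriole and Hedgehog kinesins the rises numbered 1 where only genes reaching the median level were tested. Their falls numbered 1 with a replicate block, without the dimmest 25% of genes, with an intensity trend and robust estimation, with array weights or with a pseudocount of 1, 2 with probe sets averaged, and 0 to 1 without 1 array. Falls of the other kinesins numbered 2 with probe sets averaged and 0 to 1 without 1 array. Class medians moved by more than the spread between replicates in these cases. The median of all kinesins was 0.0296 with quantile normalization, 0.0742 without the dimmest 25%, 0.142 at or above the median level (which tested 26 of the 41), -0.000309 with probe sets averaged, 0.0304 with a pseudocount of 64, and 0.0190 to 0.0769 without 1 array. The mitotic median was 0.163 with quantile normalization and 0.190 to 0.221 without 1 array. The transport median was -0.0238 with probe sets averaged and 0.0153 to 0.0769 without 1 array, so its sign is not settled. The cilium class was at -0.0614 with quantile normalization, 0.331 at or above the median level (1 gene), -0.0424 with probe sets averaged, -0.118 and -0.0410 with pseudocounts of 1 and 64, and the others at -0.0541 with a pseudocount of 1 and -0.0385 to -0.00495 without 1 array. Apart from the averaged probe sets and KIF16B, the cause of these shifts was not tested. Replicate numbers did not pair the arrays: the deviations of same-numbered arrays correlated at 0.22, -0.15 and -0.03, and only 2 of 6 arrays correlated best with their own number. With the replicate block 5619 genes passed in place of 5733, and the kinesins gave 16 rises and 4 falls, not all the same genes: KIF20A lost its fall (adjusted p = 0.055), while KIF27 (-0.13, adjusted p = 0.033) fell and KIFC2 (0.13, adjusted p = 0.037) rose.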

Other observations

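Cytoplasmic dynein, the motor that walks towards the minus ends of the same microtubules, showed its largest change in a light chain. DYNLRB1, the roadblock chain through which dynein binds some of its cargo, read 676.1, 687.2 and 725.9 in shERCC6L, against 1760, 1758 and 1738 in shNC, a log2 fold change of -1.31 ± 0.04 (limma adjusted p = 1.1e-07). A second probe set of the gene fell by 1.22, and the remaining one, with mean signals of 14.9 and 13.9 in shERCC6L and shNC, did not pass. Of 21 dynein and dynactin genes measured, 8 were higher and 5 lower, with a median log2 fold change of 0.012. Of the 19 at the median level of all genes 8 rose and 4 fell, 42.1% and 21.1%, near the 32.8% and 19.6% of all genes there. The dynactin subunit gene DCTN3 fell by 0.29 ± 0.03 and the adaptor gene BICD1 by 0.31 ± 0.04, while DCTN5 rose by 0.26 ± 0.04. The heavy chain gene DYNC1H1, named after its value was seen, was at 0.11 ± 0.03 (adjusted p = 0.034).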
